A study of Mus musculus with 12 samples.

Results

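The unfolded protein response and the folding machinery of the endoplasmic reticulum (ER) were examined as a set of 41 genes in MIN6 cells, a mouse insulinoma line, given as wild type in the labels, that secretes insulin and serves as a model of the β-cell, although it is a transformed and dividing line. Genes were taken by symbol, and all 41 were found among the 54022 genes of the deposited tables. RNA sequencing had been performed in 4 conditions with 3 biological replicates each: low glucose with vehicle, low glucose with trimethylamine N-oxide (TMAO, 100 nM, 18 h), high glucose with vehicle, and high glucose with TMAO. The study's scheme gives 2.8 mM as low and 16.8 mM as high glucose, given after a fast, but no duration of the glucose step of these libraries. In the insulin secretion assays of the same cells that step lasted 1 h. TMAO is made in the liver from trimethylamine that gut bacteria release from choline and related nutrients. The study asked how TMAO affects β-cell function, with ER stress among the processes it examined, and the comparisons below ask how the mRNA levels of these genes differed between glucose levels and with TMAO.

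Proteins that fold poorly in the ER release the chaperone BiP from 3 membrane sensors, PERK (Eif2ak3), IRE1α (Ern1) and ATF6 (Atf6). PERK phosphorylates eIF2α, which slows protein synthesis and favours translation of ATF4, and ATF4 in turn drives Atf3, Ddit3, Trib3 and the phosphatase subunit gene Ppp1r15a. IRE1α splices Xbp1 mRNA, and ATF6 is cut by the site-1 and site-2 proteases, and both products induce chaperones, disulfide enzymes and the genes of ER-associated degradation. β-cells depend on this system because they fold large amounts of proinsulin. The values are mRNA levels per gene: they resolve neither the splicing of Xbp1 nor the phosphorylation of PERK and eIF2α nor the cleavage of ATF6.

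In brief, 4 of 41 genes (9.76%) were called higher and 2 (4.88%) lower in high glucose than in low glucose averaged over the treatments, beside 4.13% and 4.06% of all tested genes, and the largest of these differences was 1.40-fold. Ppp1r15a, Atf3, Dnajb9 and Ero1l were higher, and Ddit3 and Xbp1 were lower. With 1 library left out, 4 to 10 members were called. No member was called with TMAO at either glucose level by edgeR, where 0.00616% of all genes were called in low and 0% in high glucose, so that this count is that of the background. The large chaperones, BiP among them, were not called in any comparison.

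Promoter sequences are shown for the members that hold the element of the ER stress response and for those with the largest differences. RefSeq promoter windows of 300 bases (250 before to 50 after the start, GRCm38.p6) were found for 36 of the 41 members. The ER stress response element (ERSE), through which ATF6 and XBP1 act with NF-Y, was searched as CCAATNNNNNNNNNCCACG on both strands. It was present in 10 of the 36 members (27.8%) and in 37 of all 27025 genes in the promoter table (0.137%). The sites are given here in the direction in which they read CCAAT to CCACG, with both ends of the motif in capitals and the free bases in lower case.
Hspa5: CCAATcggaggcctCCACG
Hsp90b1, upstream site: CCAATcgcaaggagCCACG
Hsp90b1, downstream site: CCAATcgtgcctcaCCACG
Calr: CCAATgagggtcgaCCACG
Canx: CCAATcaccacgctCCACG
Pdia6: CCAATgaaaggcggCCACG
Dnajc3: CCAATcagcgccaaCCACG
Creld2: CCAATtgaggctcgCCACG
Syvn1: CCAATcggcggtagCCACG
Derl3: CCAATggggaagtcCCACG
Ero1lb: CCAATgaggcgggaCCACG

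The Hspa5 site lies on chr2:34772025-34772043 and ends 47 bases before the RefSeq start. Both Hsp90b1 sites lie on chr10, at 86705638 to 86705656 and at 86705533 to 86705551. A shorter relative, ERSE-II, was searched as ATTGGNCCACG, which shares CCACG with ERSE, and was present in Dnajb11 and Herpud1 among the members and in 12 of all genes (0.0444%). The XBP1 element UPRE (TGACGTGG) was in none of the 36 members and in 193 genes (0.714%). The ATF4 element CARE (TGATGCAA) was in Atf3 and Herpud1 and in 279 genes (1.03%), and the cyclic AMP response element (CRE, TGACGTCA, which shares TGACGT with UPRE) was in Ppp1r15a and in 549 genes (2.03%). A match describes the letters only and does not show that a factor binds. Whole windows follow for 4 members, with each match in capitals: Ppp1r15a and Atf3, the members with the largest differences, and Hspa5 and Herpud1, the genes of the chaperone BiP and of an ER-associated degradation protein, both without a called difference.
Ppp1r15a, minus strand, chr7:45526219-45526518, CRE in capitals: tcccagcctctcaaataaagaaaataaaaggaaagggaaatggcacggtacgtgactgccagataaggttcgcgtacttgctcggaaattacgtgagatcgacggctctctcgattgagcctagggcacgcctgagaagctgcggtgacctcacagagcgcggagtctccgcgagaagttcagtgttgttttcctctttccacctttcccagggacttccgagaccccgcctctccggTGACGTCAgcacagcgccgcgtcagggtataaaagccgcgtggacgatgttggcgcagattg
Atf3, minus strand, chr1:191183284-191183583, CARE in capitals, read on the opposite strand: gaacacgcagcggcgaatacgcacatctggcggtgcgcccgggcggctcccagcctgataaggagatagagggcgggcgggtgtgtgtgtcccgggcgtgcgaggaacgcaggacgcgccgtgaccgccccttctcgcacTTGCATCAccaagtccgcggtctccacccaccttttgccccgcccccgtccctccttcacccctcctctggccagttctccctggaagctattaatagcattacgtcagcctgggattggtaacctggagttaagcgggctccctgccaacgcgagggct
Hspa5, plus strand, chr2:34771840-34772139, ERSE in capitals: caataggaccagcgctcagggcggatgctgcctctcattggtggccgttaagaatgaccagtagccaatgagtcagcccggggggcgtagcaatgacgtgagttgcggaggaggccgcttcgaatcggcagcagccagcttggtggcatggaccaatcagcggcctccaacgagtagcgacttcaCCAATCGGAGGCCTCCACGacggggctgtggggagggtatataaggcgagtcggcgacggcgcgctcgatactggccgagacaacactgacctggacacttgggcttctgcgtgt
Herpud1, plus strand, chr8:94386179-94386478, CARE on the opposite strand and ERSE-II in capitals: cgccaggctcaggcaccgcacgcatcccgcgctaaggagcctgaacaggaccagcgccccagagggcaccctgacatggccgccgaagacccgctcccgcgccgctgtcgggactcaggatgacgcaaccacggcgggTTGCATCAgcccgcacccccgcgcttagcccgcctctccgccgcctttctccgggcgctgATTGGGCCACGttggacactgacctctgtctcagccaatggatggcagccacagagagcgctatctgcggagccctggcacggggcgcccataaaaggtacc

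Levels were compared between genes in FPKM, fragments scaled to the length of the gene and the total of the library, as the authors deposited them. The members were abundant: the median of their percentile ranks by mean FPKM among the tested genes was 94.0, 11 of them were over 100 FPKM, and 5 were under 10 FPKM. P4hb, Calr, Hspa5 and Atf4 were the most abundant and Mbtps2 the least. Replicates were close, with a coefficient of variation within conditions (CV) of 3.94% at the median of the members, 1.42% at the lowest and 10.3% at the highest. Below, the 4 means of a gene are given in the order low glucose with vehicle, low glucose with TMAO, high glucose with vehicle and high glucose with TMAO, each over 3 libraries.

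**Figure D1:**
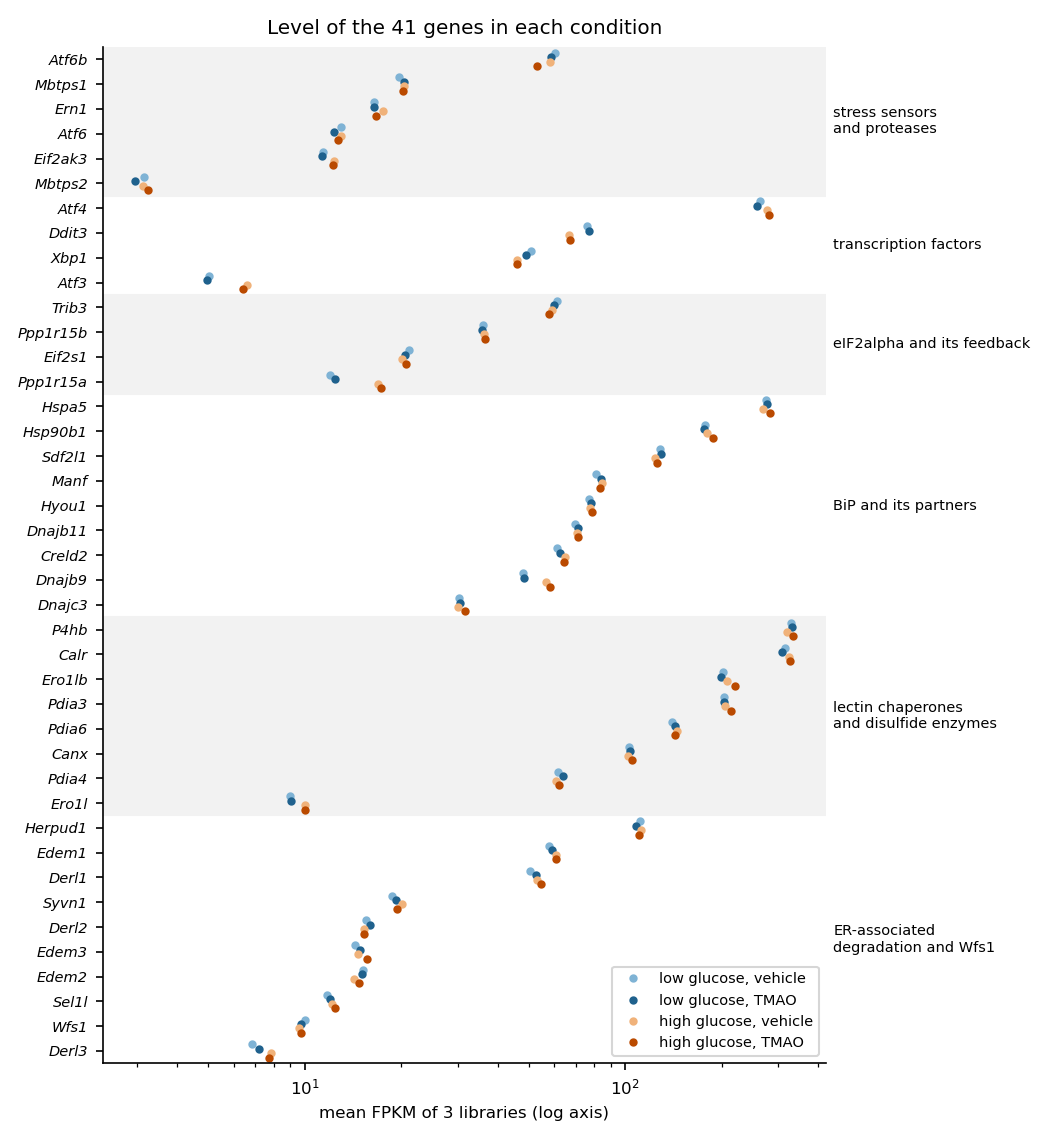
Mean FPKM (log axis) of each of the 41 genes in the 4 conditions, 1 point per condition over 3 libraries, grouped by role. The points of a gene lie close together against a range between genes from about 3 FPKM for Mbtps2 to over 300 FPKM for P4hb and Calr, and the low-glucose and high-glucose points separate for Ppp1r15a, Atf3, Dnajb9 and Ddit3.

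High glucose was compared with low glucose in the vehicle libraries, in the TMAO libraries and averaged over both. In the vehicle libraries 3 of the 41 members were higher and 1 was lower at an adjusted p under 0.05, against 1.99% of all tested genes called higher and 1.31% called lower. In the TMAO libraries, which are different libraries, again 3 were higher and 1 was lower, against 2% and 1.64% of all genes. These were the same 4 genes: Ppp1r15a, Atf3 and Dnajb9 were higher and Ddit3 was lower in each. Averaged over the treatments, 4 were higher and 2 were lower, with Ero1l and Xbp1 as the additional calls, against 4.13% and 4.06% of all genes. Without replicate 1 of high glucose with vehicle this count was 10 in place of 6, with Eif2ak3, Atf6b, Atf4 and Ero1lb in addition, and without replicate 3 of either high-glucose condition it was 4. The median log2 difference of the 41 members was 0.029 in the averaged comparison, beside 0.0011 over all tested genes, and 30 members had a difference above 0 and 11 below. Of the members, 9.76% were thus called higher and 4.88% lower in the averaged comparison, and 7.32% and 2.44% with either treatment. Ppp1r15a was called whichever single library was left out, whereas Atf3, Ddit3 or Dnajb9 was lost within vehicle or within TMAO without some libraries, given with each gene below. Averaged over the treatments, all 4 were called under each alternative and with each library left out.

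Ppp1r15a encodes GADD34, the inducible subunit that brings protein phosphatase 1 to eIF2α and restores protein synthesis. Its level was 12.97, 11.3 and 11.5 FPKM in the low-glucose vehicle libraries, 13.1, 12.7 and 11.4 FPKM in low glucose with TMAO, 16.4, 16.7 and 17.7 FPKM in high glucose with vehicle and 17.4, 17.6 and 16.8 FPKM in high glucose with TMAO. All 6 high-glucose libraries were above all 6 low-glucose libraries. The log2 difference was 0.50 ± 0.065 (SE) in vehicle (adjusted p = 2.84e-06) and 0.48 ± 0.065 in TMAO (adjusted p = 7.05e-06, edgeR's quasi-likelihood test). Averaged, it was 0.49 (95% interval 0.40 to 0.58), a 1.40-fold change and the largest among the members. The gene lies on chr7:45522916-45526268 on the minus strand (GRCm38). The constitutive counterpart Ppp1r15b, CReP, averaged 35.9, 35.6, 36.3 and 36.4 FPKM (CV 2.82%), and its averaged glucose difference was 0.025 (95% interval -0.038 to 0.088).

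Atf3, an activating transcription factor family member that is induced by many stresses, had the next largest difference. Its level was 5.05, 4.61 and 5.37 FPKM in low glucose with vehicle, 5.14, 4.59 and 5.08 FPKM in low glucose with TMAO, 5.87, 6.94 and 7.04 FPKM in high glucose with vehicle and 6.90, 6.36 and 5.96 FPKM in high glucose with TMAO. The groups of 6 libraries did not overlap, although the gene was among the least abundant members. The log2 difference was 0.40 ± 0.10 in vehicle (adjusted p = 0.0173), 0.38 ± 0.10 in TMAO (adjusted p = 0.0298) and 0.39 ± 0.071 averaged (adjusted p = 0.00032, edgeR). The call in vehicle was lost without replicate 1 or 2 of low glucose or without replicate 2 or 3 of high glucose (adjusted p 0.0566 to 0.145). The call in TMAO was lost without any low-glucose replicate or without replicate 1 or 2 of high glucose (0.0572 to 0.150). With limma on log2(FPKM + 1) the call in TMAO was lost as well (adjusted p = 0.0509). Atf3 lies on chr1:191170296-191218039 on the minus strand, so the RefSeq window printed above lies inside the annotated gene. Which start site is used in these cells was not tested.

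Ddit3 encodes CHOP, the transcription factor associated with cell death under lasting ER stress, and it moved the other way. It was at 77.6, 74.4 and 75.7 FPKM in low glucose with vehicle and 77.99, 74.6 and 78.9 FPKM in low glucose with TMAO. In high glucose it was at 63.1, 67.7 and 69.8 FPKM with vehicle and 70.1, 65.5 and 66.6 FPKM with TMAO. All 6 high-glucose libraries lay below all 6 low-glucose libraries. The log2 difference was -0.18 ± 0.048 in vehicle (adjusted p = 0.0297), -0.19 ± 0.048 in TMAO (adjusted p = 0.0178) and -0.19 ± 0.034 averaged (adjusted p = 0.000307, edgeR). The call in vehicle was lost without any single library but high-glucose replicate 3 (adjusted p 0.0655 to 0.178). The call in TMAO was lost without replicate 1 or 3 of low glucose or without replicate 2 or 3 of high glucose (0.0611 to 0.106). With limma on log2(FPKM + 1) the call in vehicle was lost as well (adjusted p = 0.0502). Ddit3 lies on chr10:127290774-127296288 on the plus strand. It shares 68 exon bases (3.97% of its exon length) with Mars on the opposite strand, the methionyl-tRNA synthetase gene, which had a similar mean count (2919 against 2328 fragments) and an averaged glucose difference of 0.051 (adjusted p = 0.487). A second GENCODE M21 gene entry of the same name overlaps it by 105 exon bases (6.13%) on the same strand, and no count of that entry was used here. Whether fragments were counted by strand was not given in the sources used here.

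Xbp1 was the other transcription factor called, in the averaged comparison. Its level was 53.2, 51.3 and 48.3 FPKM in low glucose with vehicle, 52.4, 49.5 and 45.7 FPKM in low glucose with TMAO, 47.2, 46.8 and 44.1 FPKM in high glucose with vehicle and 45.9, 46.7 and 44.9 FPKM in high glucose with TMAO. The groups of 6 overlapped, because the replicate 3 library of low glucose with TMAO lay among the high-glucose libraries. The averaged log2 difference was -0.12 ± 0.036 (adjusted p = 0.0296), with -0.14 in vehicle (adjusted p = 0.146) and -0.10 in TMAO (adjusted p = 0.360). This call was lost with limma on log2(FPKM + 1) (adjusted p = 0.0820) and when any of 7 single libraries was left out (adjusted p 0.0517 to 0.115): replicate 1 or 2 of either low-glucose condition, replicate 3 of high glucose with vehicle, or replicate 1 or 3 of high glucose with TMAO. Xbp1 lies on chr11:5520659-5525893 on the plus strand.

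Atf4, the transcription factor of the PERK arm, was more abundant than Atf3, Ddit3, Trib3 and Ppp1r15a, at 263, 258, 277 and 282 FPKM in the 4 conditions (CV 5.15%). Its glucose difference was 0.079 in vehicle (adjusted p = 0.541), 0.13 in TMAO (adjusted p = 0.183) and 0.10 ± 0.035 averaged (adjusted p = 0.0627), which did not pass. Without low-glucose TMAO replicate 1 its averaged difference was 0.13 (adjusted p = 0.0111), and it also passed without low-glucose vehicle replicate 1 (0.0439) and without high-glucose vehicle replicate 1 (0.0224). Trib3, a pseudokinase induced by ATF4 and CHOP, averaged 61.05, 59.9, 59.02 and 58.01 FPKM (CV 6.37%) with an averaged glucose difference of -0.047 (95% interval -0.13 to 0.039). Eif2s1, the gene of eIF2α itself, averaged 21.1, 20.5, 20.1 and 20.7 FPKM (CV 6.28%) with a difference of -0.028 (95% interval -0.11 to 0.057).

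**Figure D2:**
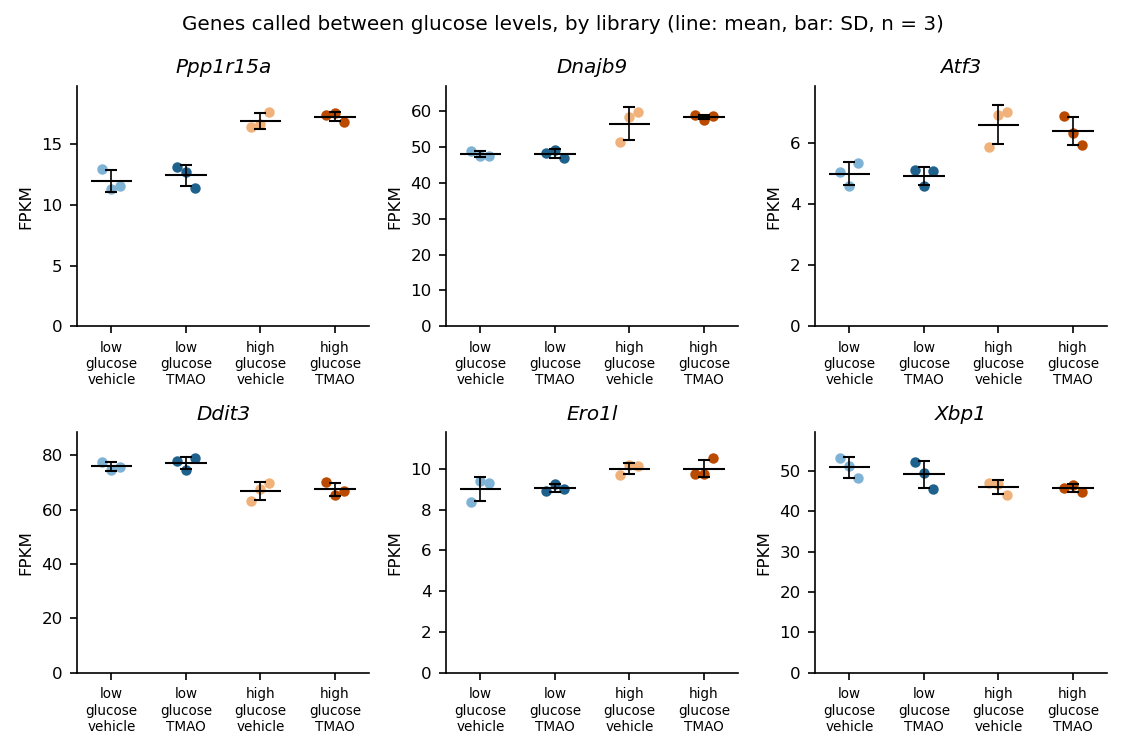
FPKM of the 6 members called between glucose levels, in each of the 12 libraries, with 1 panel per gene and axes that start at 0. Horizontal lines are the means and bars the SD of 3 libraries, and the high-glucose libraries lie apart from the low-glucose libraries for all but Xbp1.

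In the model of the 4 condition means, none of the 6 sensors and sensor proteases was called between glucose levels by edgeR, beside 4.13% of all genes higher and 4.06% lower in the averaged comparison, so that 0 of 6 lies near the background. Eif2ak3, the gene of PERK, was nearest to the threshold: its level was 11.8, 11.2 and 11.2 FPKM in low glucose with vehicle, 11.5, 11.6 and 10.9 FPKM in low glucose with TMAO, 11.9, 12.1 and 12.9 FPKM in high glucose with vehicle and 11.8, 12.6 and 12.4 FPKM in high glucose with TMAO. Its log2 difference was 0.11 in vehicle (adjusted p = 0.352), 0.12 in TMAO (adjusted p = 0.287) and 0.11 ± 0.037 averaged (adjusted p = 0.0532). The averaged difference passed when 1 of 4 libraries was left out (adjusted p 0.0386 to 0.0489): replicate 1 of low glucose with vehicle, replicate 2 of low glucose with TMAO, and replicate 1 of either high-glucose condition. Ern1, the gene of IRE1α, averaged 16.4, 16.5, 17.5 and 16.7 FPKM (CV 4.05%), and its difference was 0.093 in vehicle (adjusted p = 0.443), 0.021 in TMAO (adjusted p = 0.904) and 0.057 averaged (adjusted p = 0.387). Atf6 averaged 12.9, 12.3, 12.96 and 12.7 FPKM (CV 4.10%), with a difference of 0.0044 in vehicle, 0.039 in TMAO and 0.022 averaged (adjusted p = 0.987, 0.797 and 0.814). Its paralog Atf6b was more abundant, at 60.4, 58.8, 58.2 and 53.1 FPKM (CV 4.97%), and its averaged difference was -0.097 (95% interval -0.17 to -0.022, adjusted p = 0.107). It was called without replicate 3 of low glucose with vehicle and without replicate 1 of high glucose with vehicle. Mbtps1, the site-1 protease, averaged 19.7, 20.4, 20.4 and 20.2 FPKM (CV 1.42%) and Mbtps2, the site-2 protease, averaged 3.15, 2.96, 3.12 and 3.24 FPKM (CV 3.67%), with averaged differences of 0.017 and 0.058. Of the exon length of Mbtps2, 28.4% overlaps Yy2 on the same strand, which was listed with a count of 0 in all libraries. How fragments over the shared bases were counted was not given, so the level of Mbtps2 may leave them out.

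Of the 9 genes of BiP and its partners 1 was called, the co-chaperone Dnajb9 (ERdj4), beside 4.13% of all genes called higher in the averaged comparison. Dnajb9 returns BiP to IRE1α and helps in ER-associated degradation. Its level was 48.9, 47.6 and 47.5 FPKM in low glucose with vehicle and 48.3, 49.3 and 46.99 FPKM in low glucose with TMAO, against 51.4, 58.5 and 59.9 FPKM in high glucose with vehicle and 58.96, 57.7 and 58.6 FPKM in high glucose with TMAO. No high-glucose library fell within the low-glucose range, and the nearest was replicate 1 with vehicle. The log2 difference was 0.24 ± 0.050 in vehicle (adjusted p = 0.00333), 0.28 ± 0.050 in TMAO (adjusted p = 0.000581) and 0.26 ± 0.036 averaged (adjusted p = 4.55e-06, edgeR). In vehicle alone it was not called without high-glucose replicate 3 (adjusted p = 0.0668). Dnajb9 lies on chr12:44205559-44210326 on the minus strand.

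Hspa5, the gene of BiP, was not called. Its level was 285, 279.9 and 259 FPKM in low glucose with vehicle, 296, 285 and 251 FPKM in low glucose with TMAO, 263, 275 and 271 FPKM in high glucose with vehicle and 282, 286 and 282 FPKM in high glucose with TMAO. The low-glucose libraries enclosed the high-glucose libraries. The log2 difference was -0.025 in vehicle (adjusted p = 0.894), 0.030 in TMAO (adjusted p = 0.841) and 0.0029 averaged (95% interval -0.066 to 0.072, adjusted p = 0.980), so that a difference of the size found for Dnajb9 lay outside its interval. Hsp90b1, the chaperone GRP94, averaged 177, 176, 179.6 and 187 FPKM (CV 3.60%), and Hyou1, a nucleotide exchange factor of BiP, averaged 77.3, 78.2, 77.8 and 78.8 FPKM (CV 1.95%). The other J-domain partners were Dnajb11 (ERdj3) at 69.6, 71.2, 70.7 and 71.1 FPKM (CV 3.80%) and Dnajc3 (p58IPK, which restrains PERK) at 30.3, 30.5, 30.05 and 31.6 FPKM (CV 4.19%). Sdf2l1, which works with ERdj3, averaged 128, 129.6, 124 and 126 FPKM (CV 4.96%). The secreted ER stress proteins Manf and Creld2 averaged 81.1, 83.9, 84.5 and 83.6 FPKM (CV 3.60%) and 61.4, 62.4, 64.7 and 64.2 FPKM (CV 3.75%). Over the 9 genes the averaged differences ran from -0.046 for Sdf2l1 to 0.26 for Dnajb9, with a median of 0.019.

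The lectin chaperones and disulfide enzymes gave 1 call among 8 genes, a number too small to be set apart from the 4.13% of all genes called higher. Ero1l (ERO1α), an oxidase that supplies disulfide bonds through protein disulfide isomerase, was at 8.35, 9.40 and 9.31 FPKM in low glucose with vehicle, 8.92, 9.28 and 9.002 FPKM in low glucose with TMAO, 9.68, 10.2 and 10.1 FPKM in high glucose with vehicle and 9.76, 9.76 and 10.5 FPKM in high glucose with TMAO. The 6 high-glucose libraries were above the 6 low-glucose libraries, by a narrow margin. The averaged log2 difference was 0.15 ± 0.042 (adjusted p = 0.0217, edgeR), with 0.15 in vehicle and 0.14 in TMAO, neither called alone (adjusted p = 0.208 and 0.222). The call was lost when any of 5 single libraries was left out (adjusted p 0.0520 to 0.0883): replicate 1 of either low-glucose condition, replicate 2 or 3 of high glucose with vehicle, or replicate 3 of high glucose with TMAO. Ero1l lies on chr14:45283087-45318771 on the minus strand. Its paralog Ero1lb (ERO1β), the form known to be enriched in pancreatic islets, was far more abundant, at 202, 199.6, 208 and 219 FPKM (CV 3.76%), and its averaged difference was 0.090 ± 0.030 (adjusted p = 0.0608). It was called without replicate 2 of low glucose with TMAO and without replicate 1 of high glucose with vehicle.

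The remaining genes of this role were not called. Calr and Canx, the lectin chaperones calreticulin and calnexin, averaged 315, 309, 323 and 327 FPKM (CV 1.95%) and 103, 104, 102 and 105 FPKM (CV 4.61%), with averaged glucose differences of 0.062 (adjusted p = 0.181) and 0.0068 (adjusted p = 0.947). For Calr the TMM-normalised counts of the 6 high-glucose libraries did not overlap those of the 6 low-glucose libraries, as for Eif2ak3, Ero1l, Atf3, Dnajb9 and Ppp1r15a, which makes 6 of 41 members higher without overlap (2.62% of all genes). Ddit3 was the 1 member lower without overlap (2.32% of all genes). P4hb, the classical protein disulfide isomerase, averaged 328, 331, 319 and 335 FPKM (CV 4.44%) and Pdia3, which works with the lectin chaperones on glycoproteins, 203, 203, 205 and 213 FPKM (CV 3.85%). Pdia6 averaged 139.9, 142, 145 and 143 FPKM (CV 3.03%) and Pdia4 61.5, 63.9, 60.98 and 62.3 FPKM (CV 4.56%). The averaged differences of these 4 enzymes lay between -0.022 for Pdia4 and 0.041 for Pdia3.

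None of the 10 genes of ER-associated degradation and Wfs1 was called between glucose levels by edgeR, which among so few lies near the background of 4.13% higher and 4.06% lower. Herpud1, a scaffold of the retrotranslocation complex, was the most abundant at 111, 108, 112 and 110.3 FPKM (CV 2.65%). The ubiquitin ligase Syvn1 (HRD1) and its partner Sel1l averaged 18.7, 19.3, 20.1 and 19.4 FPKM (CV 5.08%) and 11.8, 12.01, 12.2 and 12.4 FPKM (CV 3.64%). The derlins, which form part of the exit channel, differed widely in level: Derl1 averaged 50.3, 52.6, 53.1 and 54.5 FPKM (CV 3.48%), Derl2 15.5, 15.9, 15.3 and 15.3 FPKM (CV 3.57%) and Derl3 6.85, 7.18, 7.82 and 7.73 FPKM (CV 10.3%). Derl3 had the largest averaged difference of the role, 0.15 ± 0.073 (adjusted p = 0.235), and also the widest spread between replicates. The mannose-trimming proteins Edem1, Edem2 and Edem3 averaged 57.6, 59.1, 60.9 and 60.7 FPKM (CV 3.94%), 15.1, 15.1, 14.2 and 14.7 FPKM (CV 3.65%) and 14.3, 14.9, 14.6 and 15.6 FPKM (CV 3.60%). Wfs1, the ER protein mutated in Wolfram syndrome, averaged 10.01, 9.74, 9.58 and 9.70 FPKM (CV 4.75%), with a difference of -0.034 (95% interval -0.13 to 0.060). The median averaged difference of the 10 genes was 0.049.

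**Figure D3:**
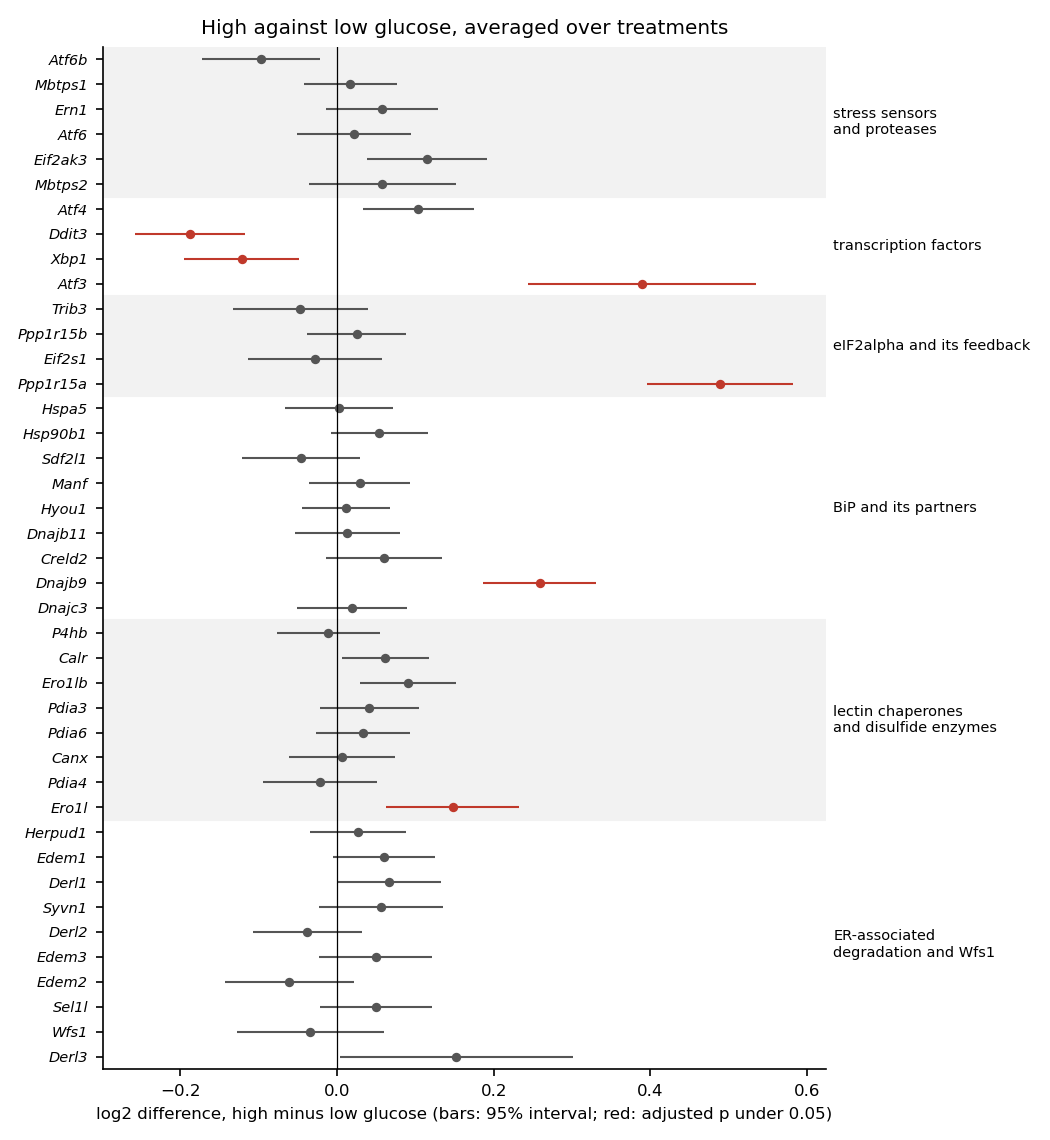
Log2 difference between high and low glucose, averaged over vehicle and TMAO, for each of the 41 members by role, with 95% intervals. Red marks the 6 members called (Ppp1r15a, Atf3, Dnajb9 and Ero1l higher, Ddit3 and Xbp1 lower), and the intervals of the chaperones other than Dnajb9 lie close to 0.

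The glucose differences in vehicle and in TMAO were then set side by side. Across the 41 genes the differences in the vehicle libraries and in the TMAO libraries, which have no library in common, had a Pearson r of 0.899, and 33 of 41 had the same sign. Without the 4 genes called in each, r was 0.635 over 37 genes. Genes are not independent replicates, and all libraries were normalised together. The interaction, which tests whether the glucose difference itself differed between treatments, was called for none of the members with edgeR, DESeq2's Wald test or limma, and for 0% of all genes with edgeR (1 gene with DESeq2). Its estimates were -0.026 for Ppp1r15a (95% interval -0.21 to 0.16), -0.027 for Atf3 (-0.32 to 0.27), 0.038 for Dnajb9 (-0.11 to 0.18) and -0.012 for Ddit3 (-0.15 to 0.13). The intervals of the interaction were wide: their median half-width was 0.14, those of 29 of the 41 members lay wholly within 0.2 of 0, and that of Derl3 reached furthest, from -0.39 to 0.21. Differences between the treatments smaller than these half-widths were not detectable, and a call after adjustment needed larger ones.

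**Figure D4:**
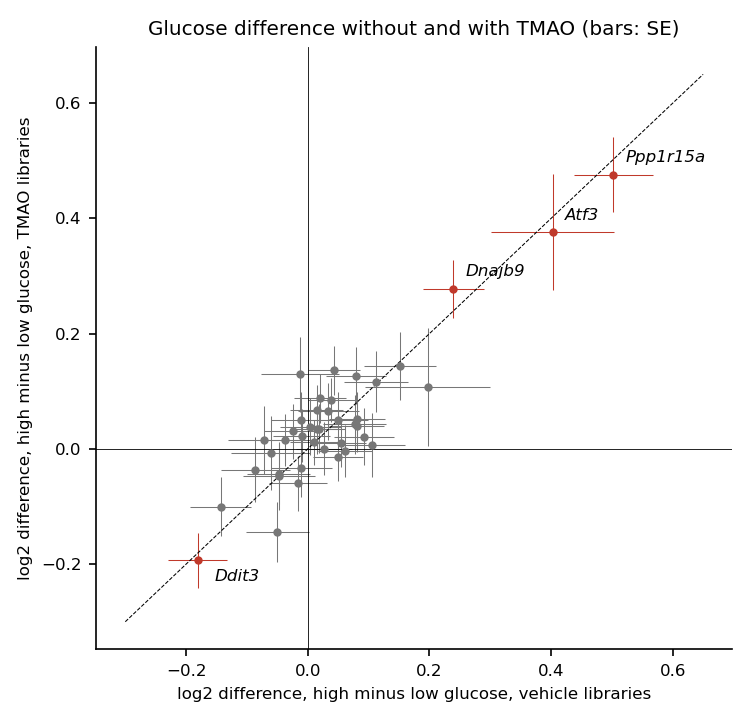
Log2 difference between high and low glucose in the vehicle libraries (horizontal axis) and in the TMAO libraries (vertical axis), 1 point per member with SE bars. The 4 members called in each (red) lie near the dashed line of equal difference, at 0.50 and 0.48 for Ppp1r15a and at -0.18 and -0.19 for Ddit3.

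The members with and without an ER stress element in these windows were described separately. Of the 12 members with ERSE or ERSE-II, 0 were called in the averaged glucose comparison by edgeR, where 4.13% of all genes were called higher and 4.06% lower, so that a count of 0 among so few lies near the background. The differences of these 12 members ran from 0.0029 to 0.15 with a median of 0.043. Ero1lb, among them, was called when either of the libraries named with it above was left out. Of the 24 other members in the promoter table, 4 were called higher and 2 lower, and their differences ran from -0.19 to 0.49 with a median of 0.029. Ppp1r15a, with a CRE, and Atf3, with a CARE, were among those called, whereas Herpud1, which holds both a CARE and ERSE-II, had a difference of 0.027 (adjusted p = 0.701).

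TMAO was compared with vehicle at each glucose level and averaged over both. No member was called at an adjusted p under 0.05 in low glucose (0.00616% of all genes called), in high glucose (0% of all genes), averaged (0%) or in the interaction (0%) with edgeR, and none was called with DESeq2's Wald test or with limma on log2(FPKM + 1). Over all genes, DESeq2 called 1 in low glucose, 3 in high glucose, 2 averaged and 1 in the interaction, and limma called 0 in each. At an edgeR p under 0.05 before adjustment, 0 members passed in low glucose (2.2% of all genes), 1 in high glucose (5.35%), 2 in the averaged comparison (3.62%) and 0 in the interaction (3.36%). DESeq2 and limma likewise gave 0, 1 and 0 members before adjustment for low glucose, high glucose and the interaction, and in the averaged comparison DESeq2 gave 2 and limma 1. The median log2 difference over the members was 0.0090 in low glucose and 0.016 in high glucose.

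For the 3 stress sensors every interval of the difference with TMAO included 0. Eif2ak3 had a log2 difference with TMAO of -0.0086 in low glucose (95% interval -0.12 to 0.10), -0.0046 in high glucose (-0.11 to 0.10) and -0.0066 averaged. For Ern1 it was 0.0047 (-0.096 to 0.11), -0.067 (-0.17 to 0.034) and -0.031. For Atf6 it was -0.070 (-0.17 to 0.032), -0.035 (-0.14 to 0.067) and -0.053. In low glucose the 3 TMAO libraries lay below the 3 vehicle libraries for Atf6, the only member without overlap there (6.36% of all genes).

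The transcription factors of the PERK and IRE1α arms and BiP likewise had intervals that included 0. Atf4 had a difference of -0.025 in low glucose (95% interval -0.12 to 0.076), 0.023 in high glucose (-0.077 to 0.12) and -0.00082 averaged. Ddit3 had 0.023 (-0.075 to 0.12), 0.011 (-0.089 to 0.11) and 0.017. Xbp1 had -0.049 (-0.15 to 0.054), -0.0062 (-0.11 to 0.098) and -0.028. Hspa5 had 0.016 (-0.081 to 0.11), 0.071 (-0.026 to 0.17) and 0.044. Adjusted p was at least 0.927 for all 7 of these genes in each of the 3 comparisons (edgeR).

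Atf6b had the smallest p among the members in high glucose. Its level there was 61.8, 55.2 and 57.7 FPKM with vehicle and 53.7, 53.7 and 51.96 FPKM with TMAO, without overlap, while in low glucose it was 63.2, 62.4 and 55.5 FPKM with vehicle and 60.9, 56.5 and 58.8 FPKM with TMAO, with overlap. The log2 difference was -0.13 in high glucose (95% interval -0.24 to -0.026, adjusted p = 0.910, edgeR), -0.039 in low glucose and -0.085 averaged (adjusted p = 1.000), and the first and the last of these were past 0.05 only before adjustment. The interaction for Atf6b was -0.094 (adjusted p = 1.000), so a difference between glucose levels was not shown. Edem3 followed with 0.092 in high glucose (adjusted p = 0.910) and 0.077 averaged (adjusted p = 1.000, past 0.05 only before adjustment), and Ero1lb with 0.079 in high glucose (adjusted p = 0.910). Atf6b, Edem3 and Hspa5 were the 3 members without overlap between treatments in high glucose (11.1% of all genes), Atf6b lower and the others higher with TMAO.

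In low glucose the smallest p-values belonged to Derl1, at 0.066, to Atf6 and to Mbtps2, at -0.090 (adjusted p = 1.000 for each, edgeR). Derl1 was also among the 3 smallest in the averaged comparison, at 0.051 (adjusted p = 1.000). In the interaction they belonged to Mbtps2, at 0.14 (95% interval -0.044 to 0.33), to Ero1lb, at 0.093 (-0.030 to 0.22), and to Atf6b. No member was called with TMAO or in the interaction under any alternative.

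The intervals show what differences these libraries leave room for. The median half-width of the 95% interval was 0.10 on the log2 scale at each glucose level and 0.071 for the averaged comparison. At each glucose level the interval of 38 of the 41 members lay wholly within 0.2 of 0, which is a change of 14.9%, and in the averaged comparison this held for all 41. The members that reached beyond 0.2 were Atf3 and Derl3 at each level, Mbtps2 in low glucose and Atf6b in high glucose, and the largest difference inside any of them was 0.28, for Derl3 in low glucose. Differences smaller than these half-widths could not be told from 0 with 3 libraries per condition. The intervals were not adjusted for the number of genes, so a call needed a difference larger than the half-width. The interval of Atf6b in high glucose excluded 0, and the gene was not called (adjusted p = 0.910, edgeR).

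**Figure D5:**
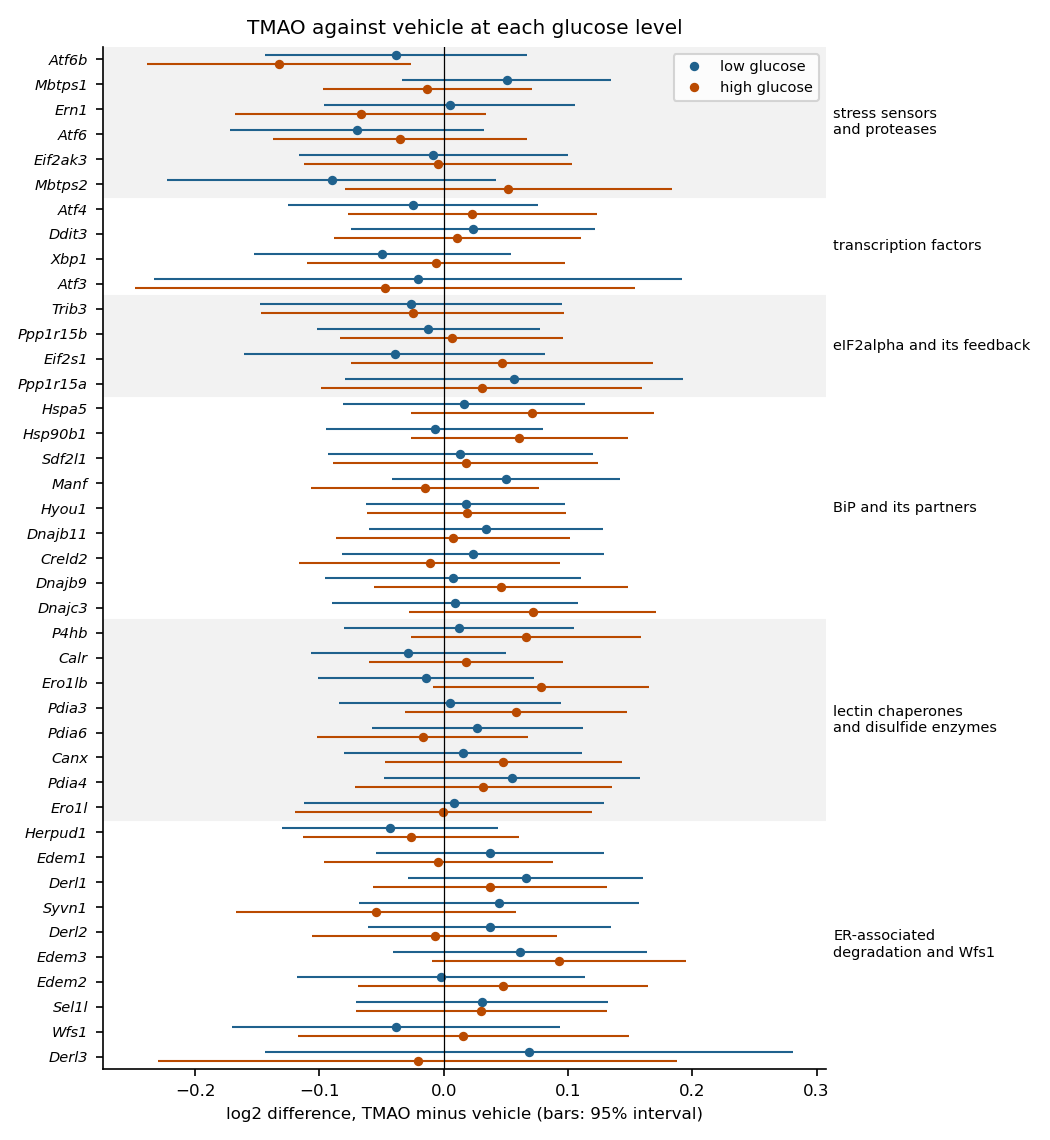
Log2 difference between TMAO and vehicle in low glucose (blue) and in high glucose (orange) for each of the 41 members by role, with 95% intervals. Every interval includes 0 except that of Atf6b in high glucose, which was not called after adjustment.

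The 41 members are only part of the network, so 5 companion lists of 210 further genes were counted in the same fit. Of 38 genes of the integrated stress response and ATF4 targets, 6 were called higher and 0 lower in the averaged glucose comparison, beside 4.13% and 4.06% of all tested genes, with a median difference of 0.068. They were Cebpb, a transcription factor partner of CHOP and ATF4 (0.52 ± 0.057, from 15.8 ± 1.39 to 22.6 ± 1.71 FPKM, SD, n = 6), Vldlr, a lipoprotein receptor (0.38), Slc7a11 and Slc3a2, the subunits of the cystine transporter (0.37 and 0.28), Psat1, an enzyme of serine synthesis (0.14), and Ppp1cc, a catalytic subunit of protein phosphatase 1 (0.14). Slc3a2 was at 104 ± 3.53 FPKM in low and 126 ± 5.10 FPKM in high glucose (SD, n = 6, adjusted p = 1.91e-07, edgeR). Cebpb and Slc3a2 were also called in the vehicle and in the TMAO libraries alone.

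The other lists concern the ER itself and further regulators, and their counts of 0 to 3 calls in a direction are given beside the same 4.13% higher and 4.06% lower among all genes, with nothing particular to a list read from them. Of 53 tested other ER folding genes 2 were higher, Uggt2, a folding sensor of glycoproteins (0.26), and Txndc11 (0.13). Of 40 other ER-associated degradation genes 2 were lower, Trim13 (-0.41) and the ubiquitin-conjugating enzyme Ube2g2 (-0.17). Of 39 genes of translocation, signal peptidase and glycosylation 1 was lower, Srp68 of the signal recognition particle (-0.14). Of 35 tested other regulators and ER death genes 3 were higher, Nfe2l2 (0.16), the BH3-only gene Bcl2l11 (0.15) and the ER calcium pump Atp2a2 (0.087), and 2 were lower, Creb3 (-0.12) and Tbl2 (-0.11). No gene of these lists was called by edgeR with TMAO (0.00616% of all genes in low glucose, 0% in high glucose and 0% averaged) or in the interaction (0%), which is the background. Pdia2, Erp27, Ern2, Pmaip1 and Casp12 had counts too low to be tested.

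Between 16793162 and 22340542 fragments were counted per library, and the members took between 1.14% and 1.23% of them. In low glucose, the replicate 3 libraries of both treatments had the lowest summed FPKM of BiP, its partners, the lectin chaperones and the disulfide enzymes, and the part of this in the differences was not tested. All 13 β-cell markers examined were over 1 FPKM in every library, the lowest at 13.5. Of 25 markers of other pancreatic, stromal and immune cells, 2 were over 1 FPKM in every library, Gcg (200 to 227) and Cd68 (2.88 to 4.84), and 11 were listed at 0 throughout. Coordinates in the tables matched GENCODE M21 for 39 of the 41 members. Besides Ddit3, short exon overlaps with other well-expressed genes concern Manf (Dcaf1 and Rbm15b), Syvn1 (Mrpl49) and Derl2 (Mis12). They cover 0.397% to 4.14% of the member's exon length. Hsp90b1 shares 10.3% of its exon length with 1810014B01Rik on the opposite strand, which had a mean count of 177 against 13746. In the averaged glucose comparison Mrpl49 (-0.12, adjusted p = 0.0487) and Mis12 (-0.12, adjusted p = 0.0358, edgeR) were called lower. Dcaf1, Rbm15b and 1810014B01Rik were not called (adjusted p = 0.849, 0.0545 and 0.735). The part of these overlaps in the members' differences was not tested.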

How the data were processed

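MIN6 libraries from poly-T-selected RNA were sequenced as read pairs. Per the labels' processing notes, the authors used HISAT2 2.0.5, featureCounts 1.5.0-p3 and mm10, and listed DESeq2 1.16.1. They deposited raw counts of fragments per gene, and FPKM values whose library totals lie within 1.37% of the summed counts. The raw counts entered edgeR 4.0.16 (R 4.3.3). filterByExpr kept 16222 of 54022 genes, with all 41 members among them, TMM factors were computed, and 1 robust quasi-likelihood model with a mean for each of the 4 conditions was fitted to the 12 libraries together. P-values were adjusted by Benjamini-Hochberg over all tested genes and called under 0.05. The biological coefficient of variation was 5.34%. The steps were tested on simulated counts. All pairs of replicate libraries differed by more than repeat sampling of 1 library would (relative chi-square 1.80 to 3.55).

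The members, their roles, the companion lists and the motifs were chosen with earlier results of these data known. Fold changes were given for members called in any comparison, for Eif2ak3, Ern1, Atf6, Xbp1, Atf4, Ddit3 and Hspa5, for the 3 smallest p-values in each TMAO comparison, and for up to 6 called genes of each companion list. Differences of other members were added to describe each role after their values had been seen. Alternatives were DESeq2 size factors, the DESeq2 1.42.0 Wald test, no low-count filter, a replicate block, only the libraries compared, limma 3.58.1 on log2(FPKM + 1), and each library left out. Promoters came from RefSeq windows, of which 30 of 36 ran into a GENCODE M21 transcript of the gene in the same direction. Ero1l and Ero1lb were matched as Ero1a and Ero1b. No promoter was matched for Atf6, Ppp1r15b, Hyou1, Manf and Derl1. Plots were made in Python 3.11.15 (matplotlib 3.10.9).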

Additional observations from a re-analysis of the deposited data

How the results depend on the processing

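The members called between glucose levels were the same 4 in vehicle, the same 4 in TMAO and the same 6 in the averaged comparison with DESeq2's size factors, DESeq2's Wald test and no filter on low counts. With limma on log2(FPKM + 1), 3, 3 and 5 were called, without Ddit3, Atf3 and Xbp1 respectively (adjusted p = 0.0502, 0.0509 and 0.0820). With 1 library left out, 2 to 3 members were called in vehicle, 2 to 4 in TMAO and 4 to 10 in the averaged comparison. In vehicle, 2 were left without low-glucose replicate 1 or 2 or high-glucose replicate 2 (Ppp1r15a and Dnajb9) and without high-glucose replicate 3 (Ppp1r15a and Ddit3, with Dnajb9 at an adjusted p of 0.0668). In TMAO, 2 were left (Ppp1r15a and Dnajb9) without low-glucose replicate 3 or high-glucose replicate 2, the 4 without low-glucose replicate 2 were Ddit3, Ppp1r15a, Dnajb9 and Ero1lb, and the 3 without low-glucose replicate 1 were Atf4, Ppp1r15a and Dnajb9. In the averaged comparison, 10 were called without high-glucose vehicle replicate 1, with Eif2ak3, Atf6b, Atf4 and Ero1lb in addition, and 4 (without Xbp1 and Ero1l) without high-glucose vehicle replicate 3 or high-glucose TMAO replicate 3. The counts for TMAO and for the interaction stayed at 0 under all alternatives and with each library left out. The cause was not tested.

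Libraries share a replicate number across conditions, but nothing says that the number marks a shared day. In the pairs of conditions that were compared directly, the correlation of same-numbered libraries' deviations ran from -0.038 to 0.21. Against the libraries of all other conditions, 10 of the 12 correlated best with one of their own number. This is a hint from the data and not from the design. With the replicate block, 5 members were called in vehicle (Xbp1 in addition, adjusted p = 0.0361), 5 in TMAO (Ero1lb in addition), 9 in the averaged comparison (Atf6b, Ero1lb and Eif2ak3 in addition, the last at an adjusted p of 0.0370) and 0 with TMAO or in the interaction. The companion lists gave 23 calls with the replicate block and 16 without it.

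Of 65 named log2 differences, 18 turned their sign in some alternative, and none of these was called. Without a filter on low counts, the glucose difference was -0.0043 for Atf6 in vehicle and -0.0042 for Hspa5 averaged. The rest turned when 1 library was left out. For glucose in vehicle it ran from -0.042 to 0.059 for Atf6 and -0.067 to 0.0031 for Hspa5. For glucose in TMAO it ran from -0.0098 to 0.057 for Ern1 and -0.037 to 0.081 for Hspa5. For glucose averaged it ran from -0.0022 to 0.050 for Atf6 and -0.032 to 0.028 for Hspa5. For TMAO in low glucose it ran from -0.027 to 0.020 for Eif2ak3, -0.037 to 0.036 for Ern1, -0.080 to 0.028 for Atf4 and -0.032 to 0.081 for Hspa5. For TMAO in high glucose it ran from -0.025 to 0.031 for Eif2ak3, -0.089 to 0.0089 for Atf6, -0.037 to 0.013 for Xbp1, -0.012 to 0.051 for Atf4 and -0.027 to 0.042 for Ddit3. For TMAO averaged it ran from -0.017 to 0.011 for Eif2ak3, -0.028 to 0.026 for Atf4 and -0.0018 to 0.033 for Ddit3. Such values near 0 have no direction at this depth and number of libraries.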
